A study of Mus musculus with 6 samples.

Results

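The transcripts of 47 splicing factor genes were examined in YUMM3.3 tumors from vehicle-treated and rigosertib-treated mice. The genes are the protein-coding entries of the count table whose symbol is that of an SR protein (*Srsf* followed by a number), an hnRNP (any symbol starting with *Hnrnp*), a Tra2 protein, a polypyrimidine tract-binding protein (*Ptbp*), a subunit of SF3A or SF3B, or U2AF. They make up 47 of the 40166 genes in the table and fall into 11 SR proteins, 2 Tra2 proteins, 20 hnRNPs, 3 Ptbp genes, 9 SF3A or SF3B subunits and 2 U2AF subunits. Another 2 entries that match by symbol, *Hnrnpa1l2-ps* and *Hnrnpa1l2-ps2*, are processed pseudogenes with 0 counts in every tumor and were left aside.

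YUMM3.3 cells, a mouse melanoma line with mutant BRAF, were injected under the skin of C57BL/6 mice, and the resulting tumors were sequenced as bulk RNA, which combines tumor, stromal and immune cells. The 3 RGS tumors came from mice given rigosertib (RGS), an agent aimed at signalling downstream of RAS, at 300 mg/kg by oral gavage on 5 days a week, and the 3 vehicle tumors from mice given water (0 mg/kg). All 6 were collected after 17 days, they carry the numbers 7 to 9 (vehicle) and 10 to 12 (RGS), and the age of the mice that gave these 6 tumors is not in the labels. The labels speak of replicates without saying that each tumor came from a separate mouse, so the p-values measure the spread between these tumors. All tumors derive from a single cell line, and in bulk RNA fewer cells of a type and less RNA per cell cannot be told apart. The comparison asks how RGS changed gene expression in these tumors.

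Introns are removed from pre-mRNA by the spliceosome, whose early steps define the splice sites: U2AF binds the polypyrimidine tract and the end of the intron, and SF3A and SF3B anchor the U2 snRNP at the branch point. SR proteins, which carry serine- and arginine-rich domains, usually promote the use of the exons they bind, whereas many hnRNPs and the Ptbp proteins often repress them. Several SR and hnRNP genes control their own level by splicing in an exon that exposes the transcript to nonsense-mediated decay (NMD), and their abundance and that of the kinases that phosphorylate SR proteins shape alternative splicing in tumors.

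The deposited values are raw read counts per gene, which summed to between 13837932 and 32555494 per tumor, and every vehicle library was deeper than each RGS library. Levels of a gene are given as CPM, counts per 1000000 of a library total scaled by TMM (edgeR factors of 0.920 to 1.08), and 3 counts corresponded to 0.0856 to 0.226 CPM depending on the library. Fold changes and adjusted p-values come from edgeR's quasi-likelihood test of RGS against vehicle with Benjamini-Hochberg adjustment over 15355 genes, those whose median count reached 5 in 1 group or both, and a gene passed at an adjusted p under 0.05. Errors of levels are SDs over 3 tumors, and errors of log2 fold changes are standard errors (SE). Among 8 melanocyte lineage markers the defining pigment genes *Mlana*, *Tyr*, *Tyrp1* and *Dct* had at most 3 counts in every tumor and the list summed to 4.94 to 7.67 CPM with vehicle and 4.52 to 12.7 CPM with RGS, so the labelled melanoma lineage is not visible in these markers. The summed level of 10 leukocyte markers was 211 to 283 CPM with vehicle and 922 to 1020 CPM with RGS, most of it *Laptm5*, while 7 of the 10, among them *Ptprc* and *Cd3e*, had at most 3 counts in every tumor. The summed level of 9 fibroblast and endothelial markers was 365 to 554 and 276 to 314 CPM, most of it *Col1a2* and *Pdgfra*, which passed as lower. Against this sum 2 markers of the list passed as higher at low levels. *Dcn* had means of 1.14 CPM with vehicle and 10.7 CPM with RGS, and *Cdh5* 0.555 and 6.20 CPM. The summed level of 8 proliferation markers was 784 to 814 and 380 to 470 CPM. For 6 keratinocyte markers, of which *Krt5*, *Krt14* and *Krt1* had at most 3 counts in every tumor, it was 0.399 to 1.72 and 6.77 to 22.8 CPM. Most of the RGS sum was *Ivl*, which averaged 12.3 CPM there and was listed at 0 in every vehicle tumor. *Krt10*, with means of 0.986 CPM with vehicle and 1.59 CPM with RGS, did not pass. The part of these shifts in the results below was not tested.

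Of the 47 genes, 44 passed the filter on low counts. With RGS 7 fell, 11 rose and 26 did not pass the test. By fitted fold change *Hnrnpa1* fell the most (2.52-fold lower) and *Srsf9* rose the most (2.04-fold higher), so the largest changes were an hnRNP in one direction and an SR protein in the other. The genes that fell were *Hnrnpa1*, *Tra2b*, *Srsf3*, *Srsf7*, *Hnrnpdl*, *Hnrnpc* and *Hnrnpf*. Those that rose were *Srsf9*, *Sf3b4*, *Hnrnpd*, *Hnrnpm*, *Hnrnpul2*, *Hnrnpa2b1*, *Hnrnpa0*, *Hnrnpab*, *U2af1*, *Sf3a2* and *Hnrnpl*.

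These calls are 15.9% lower and 25.0% higher of the 44 tested splicing factors. Over all 15355 tested genes 16.5% were lower and 16.3% higher. Most of these factors are abundant, and among the 7647 tested genes whose mean lay in their range, from 16.4 to 752 CPM, 21.4% were lower and 24.0% higher. The median log2 fold change was -0.04 over the 44 factors, -0.05 over all tested genes and 0.04 over the genes within that range. The values of the groups did not overlap for 23 factors, 11 lower and 12 higher with RGS, which is 25.0% and 27.3% of the 44 beside 24.1% and 21.7% of all tested genes. The direction of the balance depended on the scaling: with library size as the only scale factor 12 factors were lower and 9 higher, the lower share of their calls went from 38.9% to 57.1%, that of all calls from 50.3% to 62.8%, and the median of all tested genes from -0.05 to -0.19. In every one of 18 alternative fits, *Hnrnpa1*, *Tra2b*, *Srsf3* and *Srsf7* were lower and *Srsf9*, *Sf3b4*, *Hnrnpm*, *Hnrnpul2*, *Hnrnpa2b1*, *Hnrnpa0*, *Hnrnpab* and *Hnrnpl* higher past the threshold. Of the factors that did not pass, 9 did in at least 1 alternative fit: *Hnrnpk*, *Srsf5*, *Srsf10*, *Hnrnph1*, *Sf3b6* and *Hnrnpll* as lower and *Hnrnph2*, *Ptbp1* and *Sf3b2* as higher. Without vehicle tumor 7 all of these except *Hnrnpll* passed, which gave 12 lower and 14 higher.

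**Figure D1:**
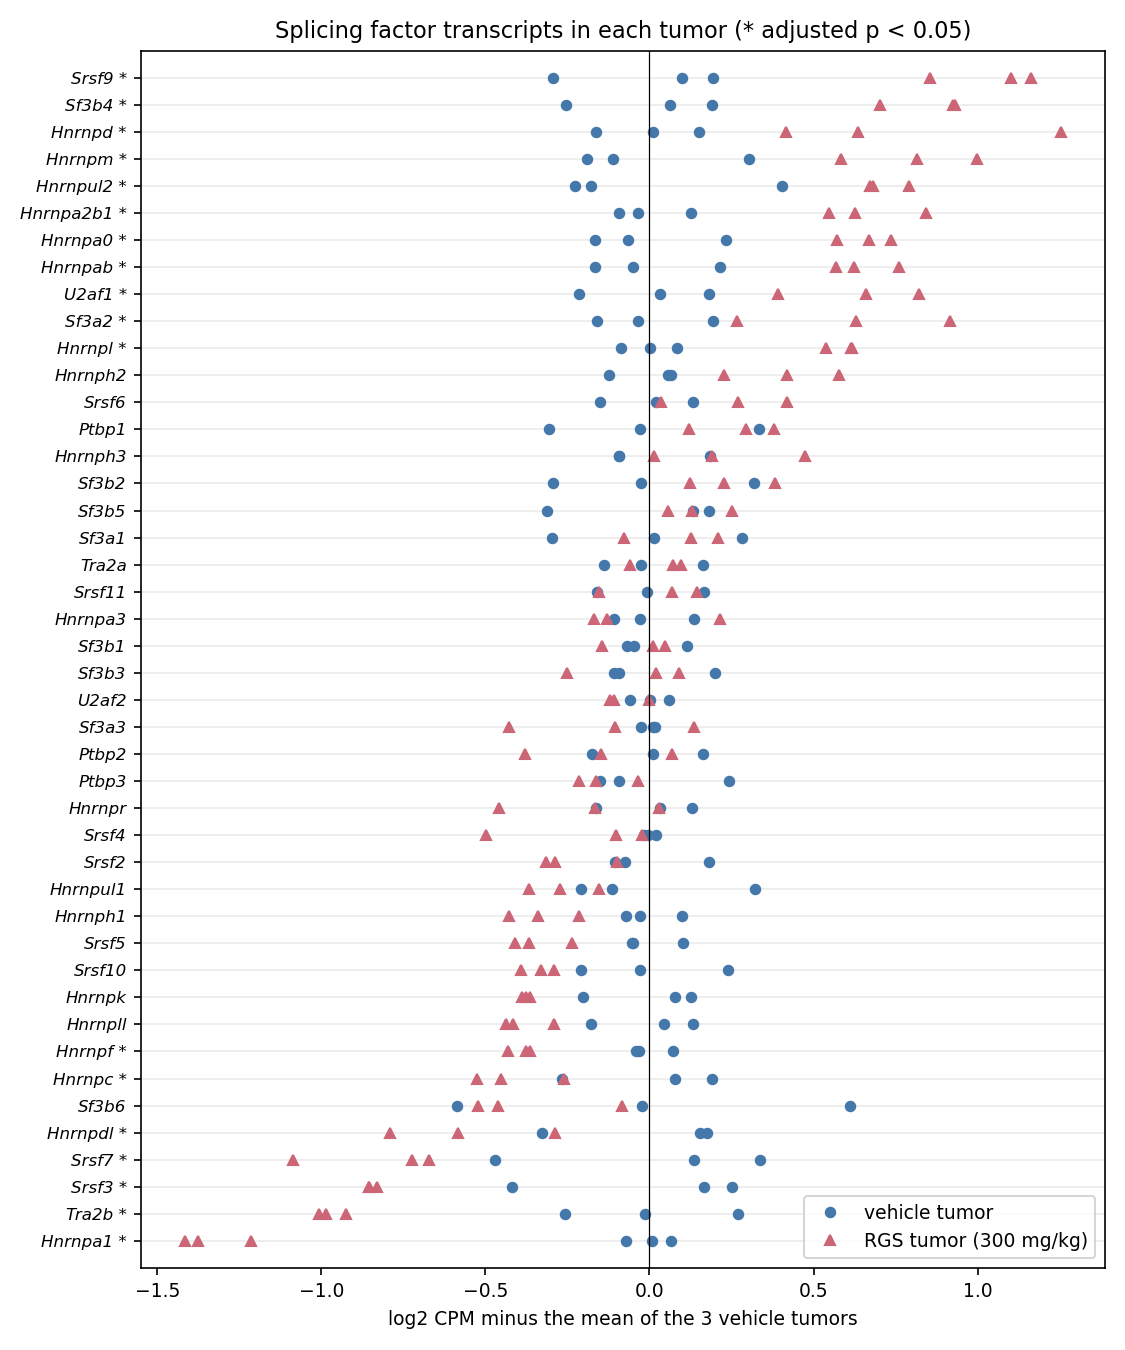
Level of each of the 44 tested splicing factors in each tumor, as log2 CPM minus the mean of the 3 vehicle tumors (x axis), with genes ordered by their fold change (y axis), circles for vehicle and triangles for RGS tumors, and an asterisk at an adjusted p under 0.05. The RGS tumors lie left of all vehicle tumors for *Hnrnpa1*, *Tra2b*, *Srsf3* and *Srsf7* and right of all of them for the 11 genes marked at the top.

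Among the 3 vehicle tumors, number 7 lay nearest to the RGS tumors for most of these genes. It had the lowest vehicle value for 5 of the 7 factors that fell and the highest for 9 of the 11 that rose. Without it, 12 factors were lower and 14 higher. Leaving out vehicle tumor 8 or 9 or RGS tumor 10 or 12 left 4 lower factors each, and the higher count then lay between 9 and 11. The median coefficient of variation of the 44 factors was 12.1% among vehicle tumors and 9.09% among RGS tumors.

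The hnRNPs moved in both directions: of 19 tested, 4 fell, 7 rose and 8 did not pass. Their shares were 21.1% lower and 36.8% higher, beside 21.4% and 24.0% of the tested genes within the factors' range of mean CPM. The lower share was thus close to that of other genes at such levels. *Hnrnpa1*, which binds exonic and intronic silencers and represses many exons, had 515, 496 and 468 CPM in the vehicle tumors and 212, 190 and 185 CPM in the RGS tumors. The groups lay far apart, and the spread within each was small beside the distance. Its means were 493 ± 23.5 and 196 ± 14.7 CPM, a log2 fold change of -1.33 (SE 0.15, adjusted p = 1.77e-06). The log2 fold change stayed between -1.47 and -1.24 in all 18 alternative fits. No exon of *Hnrnpa1* (chromosome 15, 103240432 to 103246692, GRCm38) overlaps another gene in GENCODE M21, but how the authors counted reads that also fit its processed copies elsewhere in the genome is not given in the sources used here.

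*Hnrnpdl*, a relative of *Hnrnpd*, had 119, 166 and 169 CPM with vehicle and 86.6, 123 and 99.9 CPM with RGS. Vehicle tumor 7 lay below RGS tumor 11, so the groups overlapped, and the log2 fold change was -0.56 (SE 0.18, adjusted p = 0.022). *Hnrnpc*, which binds uridine tracts and packages nascent transcripts, had 357, 453 and 490 CPM with vehicle and 314, 298 and 359 CPM with RGS. Here too vehicle tumor 7 fell among the RGS tumors, and the gene was the last one inside the threshold (log2 fold change -0.42, SE 0.16, adjusted p = 0.0499). *Hnrnpf*, which binds guanine-rich runs, had 354, 380 and 352 CPM with vehicle and 281, 279 and 268 CPM with RGS, without overlap (log2 fold change -0.39, SE 0.14, adjusted p = 0.0429). Of its exon bases 26.5% also belong to unconfirmed transcripts on the opposite strand, which had at most 67 counts in any tumor. The calls of *Hnrnpdl*, *Hnrnpc* and *Hnrnpf* were lost in 4, 9 and 7 of the 18 alternative fits, among them each of those without vehicle tumor 8, vehicle tumor 9, RGS tumor 10 or RGS tumor 12.

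*Hnrnpk*, which binds cytosine-rich sequence and had the highest CPM of all the factors, lay just outside the threshold. Its values were 737, 894 and 924 CPM with vehicle and 647, 658 and 653 CPM with RGS. All RGS tumors were below all vehicle tumors, and the log2 fold change was -0.38 (SE 0.15, adjusted p = 0.0543). It passed in 6 of the 18 alternative fits, DESeq2 and limma voom among them.

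The 7 hnRNPs that rose did so without overlap between the groups, with log2 fold changes of 0.59 to 0.81. *Hnrnpd* (AUF1), a regulator of mRNA decay through AU-rich elements, had 91.6, 73.6 and 83.0 CPM with vehicle and 128, 110 and 197 CPM with RGS. RGS tumor 12 stood above the other two RGS tumors, and the log2 fold change was 0.81 (SE 0.20, adjusted p = 0.00362). Without RGS tumor 12 it was 0.51 and the adjusted p was 0.0547. *Hnrnpm*, whose protein promotes exon skipping in mesenchymal tumor cells, had 217, 154 and 162 CPM with vehicle and 263, 351 and 309 CPM with RGS, all RGS tumors higher (log2 fold change 0.79, SE 0.17, adjusted p = 0.00142). *Hnrnpul2*, a protein with roles in the response to DNA breaks, had 169, 113 and 109 CPM with vehicle and 204, 203 and 220 CPM with RGS, where vehicle tumor 7 was the nearest to the RGS values (log2 fold change 0.69, SE 0.18, adjusted p = 0.0054).

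*Hnrnpa2b1*, an abundant relative of *Hnrnpa1*, went the other way. Its level was 411, 354 and 368 CPM in the vehicle tumors and 581, 550 and 675 CPM in the RGS tumors. No vehicle tumor reached the lowest RGS value, and the log2 fold change was 0.67 (SE 0.15, adjusted p = 0.00199). *Hnrnpa0*, *Hnrnpab* and *Hnrnpl* had log2 fold changes of 0.65, 0.65 and 0.59, all with an SE near 0.15 and each past the threshold. *Hnrnpab* shares 29.1% of its exon bases with *Phykpl* on the opposite strand, and without a stated strand setting the reads of overlapping exons cannot be assigned with certainty. *Phykpl* itself was lower with RGS (log2 fold change -0.95, adjusted p = 0.0374), with 98 to 550 counts per tumor.

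The 8 hnRNPs that did not pass ranged from -0.39 (*Hnrnpll*) to 0.41 (*Hnrnph2*) in log2 fold change. *Hnrnpa3*, another relative of *Hnrnpa1*, had 387, 327 and 345 CPM with vehicle and 322, 314 and 409 CPM with RGS. The groups lay across each other, with a log2 fold change of -0.02 (SE 0.16).

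**Figure D2:**
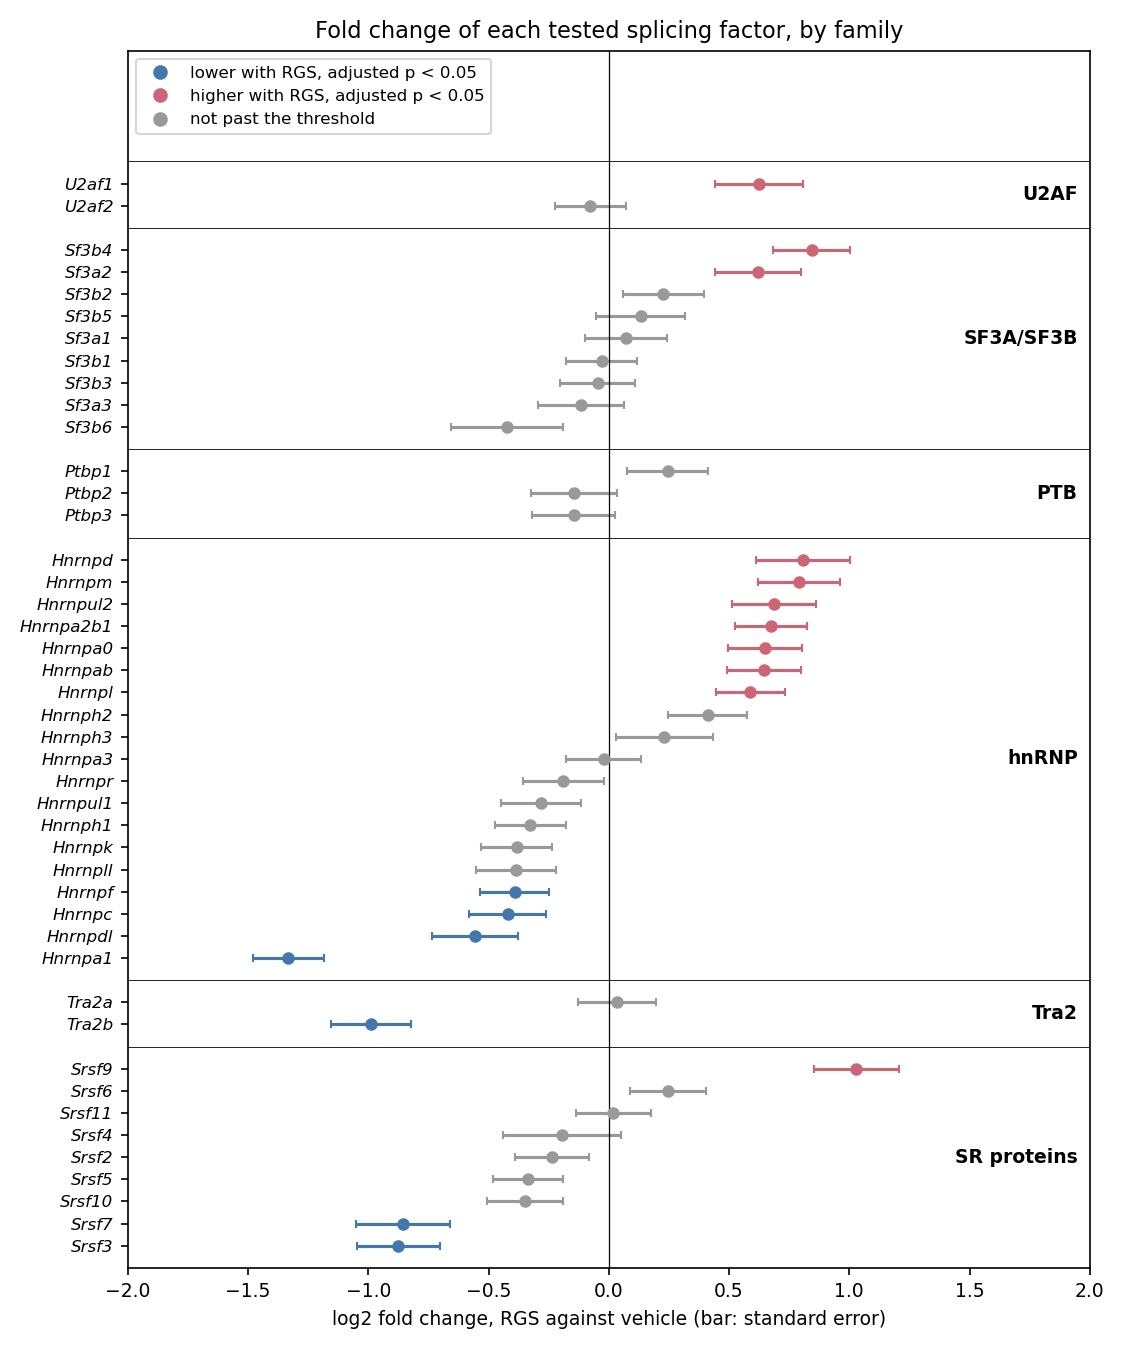
Log2 fold change of RGS against vehicle (x axis) with its standard error (bars) for the 44 tested splicing factors, grouped by family (y axis) and colored by whether they passed an adjusted p of 0.05. The hnRNPs spread from -1.33 to 0.81, and the 3 Ptbp genes lie between -0.15 and 0.24.

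Of 9 tested SR proteins 2 fell, 1 rose and 6 did not pass. This family had 22.2% lower and 11.1% higher, beside 21.4% and 24.0% of the tested genes within the factors' range of mean CPM. *Srsf3* and *Srsf7*, closely related small SR proteins that also link splicing to mRNA export, both fell. *Srsf3* had 211, 316 and 335 CPM with vehicle and 158, 156 and 156 CPM with RGS. Its RGS tumors were nearly equal and all below vehicle tumor 7, the lowest of its group, and the log2 fold change was -0.88 (SE 0.17, adjusted p = 0.000691). *Srsf7* had 109, 166 and 191 CPM with vehicle and 71.3, 95.1 and 91.7 CPM with RGS, again with vehicle tumor 7 closest to the RGS tumors (log2 fold change -0.86, SE 0.19, adjusted p = 0.0023). *Srsf9*, whose protein is a close relative of *Srsf1*, had 61.5, 57.7 and 43.9 CPM with vehicle and 97.2, 116 and 120 CPM with RGS. Every RGS tumor was above every vehicle tumor, and the log2 fold change was 1.03 (SE 0.18, adjusted p = 0.000177).

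*Srsf2*, which recognises exonic enhancers and is mutated in myeloid neoplasms, had 172, 175 and 209 CPM with vehicle and 148, 172 and 151 CPM with RGS. RGS tumor 11 and vehicle tumor 7 had about the same level, and the log2 fold change was -0.24 (SE 0.15, adjusted p = 0.256). Its exon bases are shared for 25.3% with *Mettl23* and *Mfsd11* on the opposite strand, of which *Mettl23* was lower with RGS (log2 fold change -1.02, adjusted p = 0.0267) with 103 to 534 counts. *Srsf5* and *Srsf10* had log2 fold changes of -0.34 and -0.35, *Srsf4* -0.19, *Srsf11* 0.02 and *Srsf6* 0.25, none past the threshold in edgeR. The groups did not overlap for *Srsf5*, which passed as lower in 4 alternative fits, DESeq2 and limma voom among them, or for *Srsf10*, which passed in 3, limma voom among them. SR proteins past the threshold as lower thus numbered 2 with edgeR, 3 with DESeq2 and 4 with limma voom.

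The Tra2 pair split. *Tra2b*, a splicing activator of GAA-rich exons, had 122, 144 and 176 CPM with vehicle and 73.5, 72.4 and 76.8 CPM with RGS. All RGS tumors were lower, and the log2 fold change was -0.99 (SE 0.17, adjusted p = 0.000164). *Tra2a*, which binds the same kind of sequence, had 67.6, 73.1 and 83.3 CPM with vehicle and 71.5, 78.1 and 79.6 CPM with RGS, so that its groups overlapped throughout (log2 fold change 0.03, SE 0.16, adjusted p = 0.899).

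None of the 3 polypyrimidine tract-binding genes passed edgeR's test, and none had an unadjusted p under 0.05 there or passed with DESeq2. Among the tested genes within the factors' range of mean CPM 21.4% were lower and 24.0% higher. With only 3 genes, that none passed is not read as a trait of this family. *Ptbp1*, the form found in most cells, had 332, 259 and 213 CPM with vehicle and 323, 343 and 286 CPM with RGS, a log2 fold change of 0.24 (SE 0.17, adjusted p = 0.289). *Ptbp2*, the form known from neurons, had 56.2, 63.9 and 71.0 CPM with vehicle and 66.5, 48.8 and 57.3 CPM with RGS (log2 fold change -0.15, SE 0.18, adjusted p = 0.572). *Ptbp3*, known from hematopoietic cells, had 82.1, 62.5 and 65.0 CPM with vehicle and 61.9, 59.7 and 67.8 CPM with RGS (log2 fold change -0.15, SE 0.17, adjusted p = 0.551). The groups overlapped for all 3. *Ptbp1* passed in 2 of the alternative fits, limma voom and the fit without vehicle tumor 7. It shares 20.7% of its exon bases with genes on the opposite strand, among them *Plppr3* with 43 to 269 counts per tumor.

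Of the 9 subunits of SF3A and SF3B, 2 rose and 7 did not pass. The higher share was 22.2% and the lower share 0%. Among the tested genes within the factors' range of mean CPM these shares were 24.0% and 21.4%. No subunit passed downward in edgeR, also at an unadjusted p under 0.05, or with DESeq2 or limma voom (0 in each). *Sf3b4*, the SF3B subunit that contacts RNA upstream of the branch point, had 172, 126 and 157 CPM with vehicle and 245, 287 and 285 CPM with RGS. The groups did not overlap, and the log2 fold change was 0.84 (SE 0.16, adjusted p = 0.000479). *Sf3a2* rose by a log2 fold change of 0.62 (SE 0.18, adjusted p = 0.0122), but its call was lost without RGS tumor 12 and with library size as the only scale factor. *Sf3a2* also shares 16.1% of its exon bases with *Plekhj1* on the opposite strand, which had 800 to 1961 counts per tumor and did not pass. *Sf3b1*, the largest SF3B subunit and a frequent target of mutation in cancer, had 215, 212 and 241 CPM with vehicle and 224, 230 and 201 CPM with RGS, groups that lay on top of each other (log2 fold change -0.03, SE 0.15, adjusted p = 0.901). The log2 fold changes of the other subunits ranged from -0.42 (*Sf3b6*) to 0.23 (*Sf3b2*). That of *Sf3b6* rested on single vehicle tumors: it was -0.67 without vehicle tumor 7, where it passed as lower (edgeR adjusted p = 0.00708), and -0.06 without vehicle tumor 9 (adjusted p = 0.876). *Sf3b2* passed as higher without vehicle tumor 7 (0.40, adjusted p = 0.0239).

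The U2AF heterodimer showed the same kind of split. *U2af1*, which reads the AG at the end of the intron, had 37.3, 44.2 and 48.9 CPM with vehicle and 56.7, 76.3 and 68.2 CPM with RGS. All RGS tumors were higher (log2 fold change 0.63, SE 0.18, adjusted p = 0.013), although the call was lost without RGS tumor 11 and with library size as the only scale factor. *U2af2*, the larger subunit, had 153, 166 and 160 CPM with vehicle and 147, 148 and 159 CPM with RGS, a log2 fold change of -0.08 (SE 0.15, adjusted p = 0.732).

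Levels were compared between genes as CPM per kilobase of exon. For 42 of the factors this length equals the summed exon blocks of all transcripts in GENCODE M21, so the ranks also depend on annotated length. With vehicle *Hnrnpa1* ranked 1 of the 47 with 156 ± 7.45, followed by *Hnrnpk* at 132 ± 15.6, *Hnrnpf* at 119 ± 5.14 and *Hnrnpc* at 100 ± 15.9 CPM per kilobase. *Hnrnpk* lay within its SD of *Hnrnpf*, and *Hnrnpf* and *Hnrnpc* were nearer to each other than the sum of their SDs. With RGS *Hnrnpa1* ranked 16 at 62.1 ± 4.68, and the order was led by *Hnrnpab* at 142 ± 9.87, *Sf3b4* at 126 ± 11, *Hnrnpa0* at 121 ± 6.94 and *Hnrnpk* at 101 ± 0.847 CPM per kilobase. The first 3 of these had ranked 5, 9 and 8 with vehicle. *Srsf9* moved from rank 21 to rank 12, and *Srsf7* from rank 10 to rank 20. At the low end, *Hnrnpr* had 4.33 ± 0.440 and 3.79 ± 0.631 CPM per kilobase over a length of 22199 bases. Its means of 96.1 and 84.2 CPM were above those of *Srsf4* (17.5 and 15.3 CPM), which has 3561 bases.

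**Figure D3:**
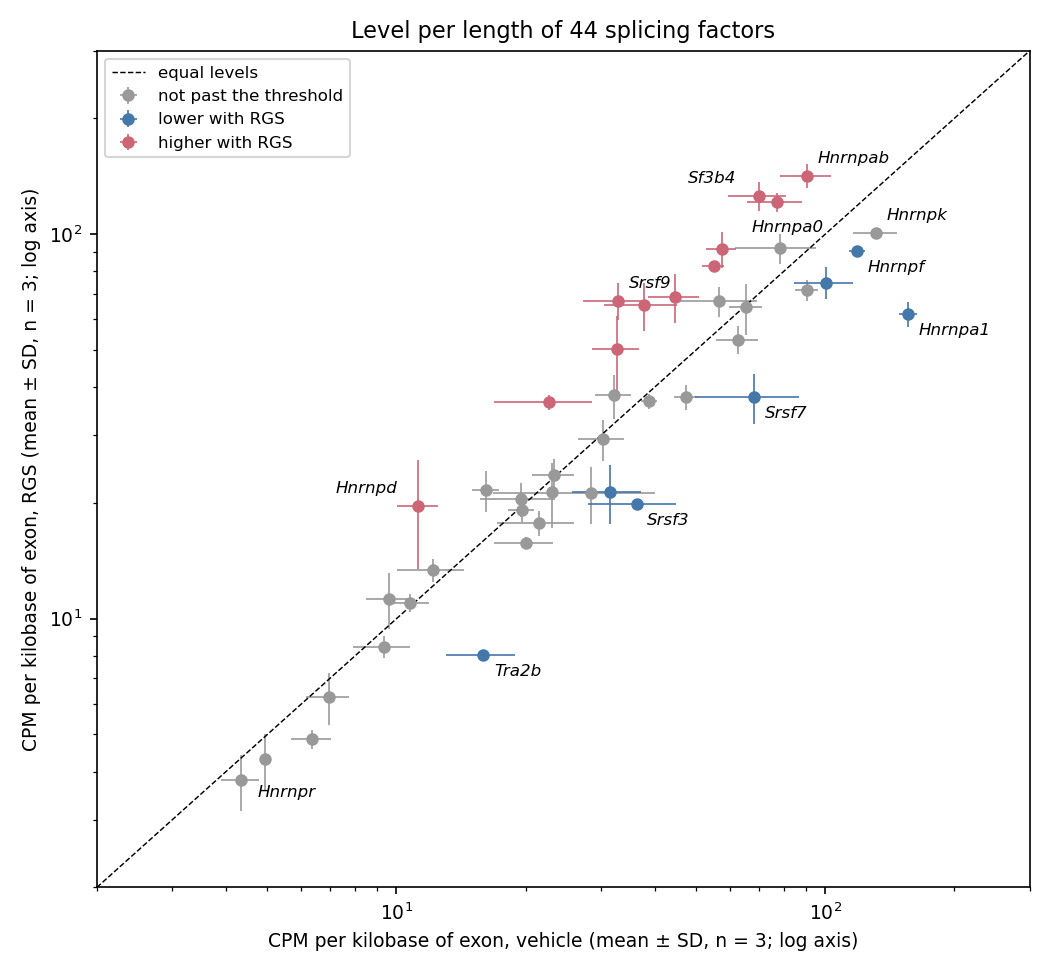
Mean level per length of the 44 tested splicing factors in RGS tumors (y axis) against vehicle tumors (x axis), in CPM per kilobase of exon on log axes, with bars for the SD over 3 tumors and a dashed line at equal levels. *Hnrnpa1*, first with vehicle at 156, lies farthest below the line, and *Hnrnpab*, *Sf3b4* and *Hnrnpa0* lie above it and have the highest RGS levels.

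The promoters of the member that fell the most, of the Tra2 gene that fell and of the member that rose the most are shown so that the starts of *Hnrnpa1*, *Tra2b* and *Srsf9* can be set beside each other. Each is the 250 bases before the transcription start in RefSeq (build GRCm38.p6), 5′ to 3′ on the strand of the gene. *Hnrnpa1* is read from chr15:103240147-103240396 on the plus strand, *Tra2b* from chr16:22266006-22266255 on the minus strand and *Srsf9* from chr5:115326927-115327176 on the plus strand. Capitals mark matches, on either strand, to the CCAAT box (CCAAT) or the GC box (GGGCGG).
Hnrnpa1: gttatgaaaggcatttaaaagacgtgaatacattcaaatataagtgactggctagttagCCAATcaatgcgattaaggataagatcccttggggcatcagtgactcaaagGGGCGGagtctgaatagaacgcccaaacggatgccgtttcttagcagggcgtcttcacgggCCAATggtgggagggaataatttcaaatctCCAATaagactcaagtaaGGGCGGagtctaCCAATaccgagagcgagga
Tra2b: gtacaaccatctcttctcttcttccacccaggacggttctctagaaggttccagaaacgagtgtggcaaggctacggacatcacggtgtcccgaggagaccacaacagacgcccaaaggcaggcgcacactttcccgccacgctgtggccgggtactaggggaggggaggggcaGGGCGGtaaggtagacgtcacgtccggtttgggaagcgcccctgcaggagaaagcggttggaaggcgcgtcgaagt
Srsf9: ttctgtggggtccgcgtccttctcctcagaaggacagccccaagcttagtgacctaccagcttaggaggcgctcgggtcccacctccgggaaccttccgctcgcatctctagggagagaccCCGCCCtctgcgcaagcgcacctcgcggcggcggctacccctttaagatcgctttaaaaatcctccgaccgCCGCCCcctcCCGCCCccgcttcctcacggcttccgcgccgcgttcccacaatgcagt

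The *Hnrnpa1* window held 4 CCAAT and 2 GC box matches, that of *Tra2b* 1 GC box and no CCAAT, and that of *Srsf9* 3 GC boxes and no CCAAT. Of all 32851 promoters of full length in the table, 0.84% held at least 4 CCAAT matches in their 250 bases, and of the 12841 promoters of tested protein-coding genes 1.36% did. Promoters were found for 41 of the 47 factors (55 promoters), and 4 of the 55 (7.27%) held at least 4: those of *Hnrnpa1* and *Hnrnpc*, which fell, of *Hnrnpl*, which rose, and of *Hnrnpr*, which did not pass. The cut-off of 4 was set at the count in the *Hnrnpa1* window, so *Hnrnpa1* was bound to be included. In windows of 300 bases, which run from 250 before to 50 after the start, the GC box stood in 80.0% of the factors' promoters, beside 61.7% for tested protein-coding genes and 35.7% for all. CCAAT stood in 50.9%, 37.7% and 37.4%, and the ETS motif CCGGAAG in 30.9%, 16.6% and 8.86%. E-box (CACGTG), CRE (TGACGTCA) and TATAAA matches were in 10.9%, 1.82% and 9.09% of the factors' promoters, beside 9.74%, 2.97% and 7.34% for tested protein-coding genes. All motifs were searched on both strands, and none of the 3 printed windows held an ETS, E-box, CRE or TATAAA match. By direction, CCAAT was in 5 of 10 promoters of the 7 genes that fell and in 7 of 11 promoters of 9 genes that rose, and the GC box in 7 of 10 and 8 of 11. A match describes the letters in a window and does not show that a factor binds there.

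Ratios between related factors within a library do not depend on the scale factor. *Tra2a* had 0.555, 0.506 and 0.475 counts for each count of *Tra2b* in the vehicle tumors and 0.972, 1.08 and 1.04 in the RGS tumors, so the pair went from unequal to about equal. The log2 ratio differed by 1.01 between the groups. *Hnrnpl* had 4.04, 5.29 and 4.04 counts for each count of its paralog *Hnrnpll* with vehicle and 8.70, 9.03 and 8.29 with RGS, a log2 difference of 0.97. The ratio of *Hnrnpd* to *Hnrnpdl* was 0.767, 0.443 and 0.492 with vehicle and 1.48, 0.896 and 1.97 with RGS, a log2 difference of 1.32, and that of *Hnrnph1* to *Hnrnph2* went from 3.57, 4.18 and 3.99 to 2.31, 2.26 and 2.48 (log2 difference -0.73). In these 4 pairs and in *Ptbp1* to *Ptbp3* (log2 difference 0.40) the groups did not overlap, which gives an exact two-sided permutation p of 0.1, the smallest that 3 against 3 tumors allow, and 0.14 after Benjamini-Hochberg adjustment over 7 pairs. For *Ptbp1* to *Ptbp2* and *Srsf4* to *Srsf6* the groups overlapped (log2 differences 0.42 and -0.45, exact permutation p = 0.3 and 0.2).

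**Figure D4:**
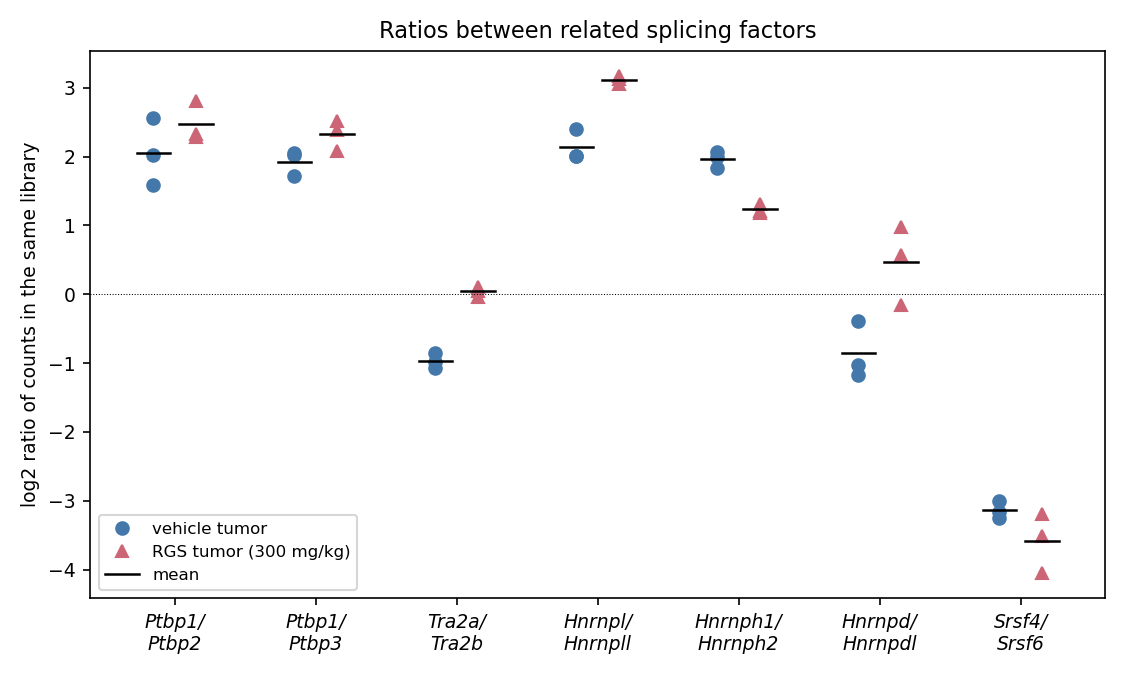
Log2 ratio of the counts of related splicing factors in the same library (y axis) for 7 pairs (x axis), with circles for the 3 vehicle tumors, triangles for the 3 RGS tumors and lines at the means. Counts are not corrected for gene length. *Tra2a* and *Tra2b* lie near a log2 ratio of 0 in the RGS tumors, and the groups overlap for *Ptbp1* with *Ptbp2* and for *Srsf4* with *Srsf6*.

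Together the 47 genes took 0.910 ± 0.0185% of all counts with vehicle and 0.825 ± 0.0103% with RGS (SD, n = 3), without overlap (exact two-sided permutation p = 0.1, the smallest possible). Genes of the mitochondrial genome took 2.52 ± 0.589% and 7.02 ± 1.33%, and with these left out the shares of the splicing factors were 0.934 ± 0.0167% and 0.888 ± 0.0231%. Their part in the fall was not tested beyond this value. On the TMM scale the sums overlapped, with 8530 to 8824 CPM in the vehicle tumors and 8318 to 9029 CPM in the RGS tumors. SR proteins summed to 1353 to 1738 CPM with vehicle and 1240 to 1363 CPM with RGS, and hnRNPs to 4861 to 4979 and 4852 to 5253 CPM.

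Of the 47 factors 3 did not pass the filter. *Hnrnpu*, a nuclear matrix protein that most cells express, is listed at 0 in all 6 tumors. *Srsf1*, a founding SR protein also used by most cells, is listed at 0 in 5 tumors and at 2 counts in vehicle tumor 8. *Srsf12* had 1, 12 and 0 counts with vehicle and 0, 7 and 1 with RGS. Since other genes that all cells use stand at similar values (*Sf1* and *Snrnp40* also had at most 3 counts in every tumor), these entries are read only as listed at 0, and the ratio of *Srsf1* to *Srsf9* could not be formed. In GENCODE M21 the exons of *Hnrnpu* overlap those of *Cox20* on the opposite strand over 6.93% of their bases and those of *Srsf1* overlap *Gm11508* over 1.72%, and the cause of the 0 entries was not tested.

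The gene-level counts sum all isoforms of a gene, so a switch between a productive and an NMD transcript is not visible in them. Of 42 factors whose versioned identifiers are in GENCODE M21, 25 (59.5%) have at least 1 transcript annotated for NMD, beside 27.8% of 12118 tested protein-coding genes, and 31 (73.8%) have a retained-intron transcript, beside 57.8%. NMD transcripts are annotated for 8 of 10 SR proteins, both Tra2 genes, all 3 Ptbp genes and 10 of 18 hnRNPs, but for 1 of 8 SF3A and SF3B subunits. They are annotated for 4 of 6 factors that fell, 4 of 8 that rose and 15 of 25 that did not pass. *Tra2b* has 3 such transcripts among 9, *Srsf3* 2 among 10, *Hnrnpa1* 2 among 5 and *Srsf9* 1 among 5. The members lie on 18 chromosomes, and 17 of the 42 share exon bases with another gene.

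The kinases that phosphorylate SR proteins were lower or did not pass: of 8 tested, 3 fell and none rose, with 0 higher also at an unadjusted p under 0.05 in edgeR and with DESeq2 or limma voom. Their lower share was 37.5%, beside 21.4% of the tested genes within the splicing factors' range of mean CPM, of which 24.0% were higher. *Clk1* had 145, 184 and 232 CPM with vehicle and 102, 118 and 82.5 CPM with RGS (log2 fold change -0.89, SE 0.19, adjusted p = 0.00121). *Srpk2* had 82.2, 74.4 and 91.5 CPM with vehicle and 45.2, 47.4 and 43.0 CPM with RGS (log2 fold change -0.87, SE 0.17, adjusted p = 0.000544). For both, no RGS tumor reached the lowest vehicle value, and *Prpf4b* was the other kinase that fell. The median over the 8 was -0.06. Among 13 SR-related proteins, 1 fell (*Srrm1*, log2 fold change -0.49) and 3 rose, led by *Acin1* (0.98) and *Scaf4* (0.72), with a median of 0.18. Their shares were 7.69% lower and 23.1% higher.

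Among snRNP proteins the U1 list of 9 had 3 lower and 3 higher genes, with *Luc7l* at -0.69 and *Snrpc* at -0.56 against *Luc7l3* at 0.82 and *Snrpa* at 0.69 (log2 fold changes, median -0.14). Partners of the U2 snRNP at the branch point (12 tested) had 3 lower, led by *Dnajc8* (-0.71) and *Smndc1* (-0.53), and 1 higher, *Puf60* (0.53), with a median of 0.02. In the Sm and LSm core (14 tested) 2 fell, *Lsm3* (-0.99) and *Lsm2* (-0.81), and none rose, with a median of -0.18, although 2 were higher at an unadjusted p under 0.05 in edgeR, 0 with DESeq2 and 1 with limma voom. The U4/U6.U5 tri-snRNP and Prp19 complex (22 tested) had 2 lower, *Prpf38a* (-0.86) and *Bcas2* (-0.71), and 4 higher, led by *Sart1* (1.03) and *Prpf6* (0.82), with a median of 0.17. In the order given, the lower shares of these lists were 33.3%, 25%, 14.3% and 9.09%. Of all tested genes 16.5% were lower, and of those from 16.4 to 752 CPM 21.4%. The higher shares of the lists were 33.3%, 8.33%, 0% and 18.2%, beside 16.3% and 24.0%. Some genes of the Sm and LSm core and of the tri-snRNP list lay below that CPM range.

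The exon junction complex and NMD factors had the largest share of higher genes among the lists of splicing genes with at least 3 tested: 7 of 15 rose (46.7%, beside 16.3% of all tested genes and 24.0% of those from 16.4 to 752 CPM) and 1 fell. *Upf3b*, a bridge between the exon junction complex and the NMD machinery, rose by 0.83 on the log2 scale and *Upf1*, its helicase, by 0.63. The kinase of *Upf1*, *Smg1*, fell by 0.60 on the log2 scale. Of 27 tested tissue-regulated splicing factors 5 fell and 5 rose, with a median of 0.14. That is 18.5% in each direction, beside 16.5% lower and 16.3% higher of all tested genes. *Celf2* had 74.7, 53.1 and 66.1 CPM with vehicle and 19.6, 19.7 and 22.3 CPM with RGS (log2 fold change -1.65, SE 0.19, adjusted p = 3.2e-06). *Pspc1* fell by 1.15 on the log2 scale and *Celf4* rose by 1.01. *Elavl3*, which also passed, had 0 counts in all vehicle tumors and in RGS tumor 11 and 17 and 10 counts in the other RGS tumors, so its groups overlapped and no fold is given.

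**Figure D5:**
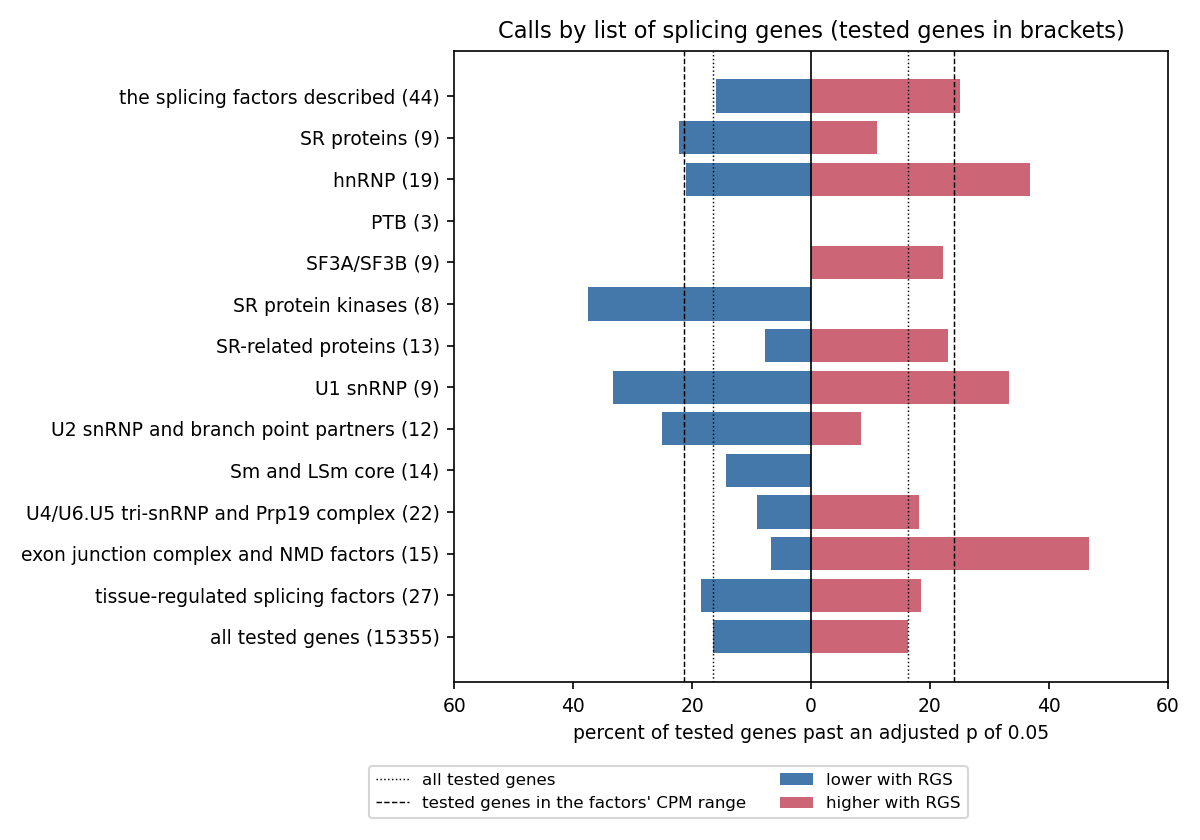
Percent of tested genes lower (bars to the left) and higher (bars to the right) with RGS at an adjusted p under 0.05 for lists of splicing genes with at least 3 tested genes (y axis, number tested in brackets), with dotted lines at the 16.5% and 16.3% of all tested genes and dashed lines at the 21.4% and 24.0% of the tested genes from 16.4 to 752 CPM. The exon junction complex and NMD list has the longest bar to the right (46.7%) and the SR protein kinases the longest to the left (37.5%).

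Of 8 proliferation markers 7 passed the test downward with RGS, with a median log2 fold change of -1.23. The splicing factors that fell and those that rose did so between the same groups of tumors. *Mki67* was at 164, 110 and 124 CPM with vehicle and 54.6, 37.6 and 53.3 CPM with RGS. Within the vehicle group tumor 7 thus had the highest *Mki67*, and also the highest *Top2a* and *Aurkb*. It had the lowest *Pcna*, *Ccnb1*, *Cdk1* and *Birc5* of the group, so the markers did not rank the vehicle tumors alike. The summed level of the 8 markers was 784 to 814 CPM over the vehicle tumors. The same tumor had the lowest *Tra2b*, *Srsf3* and *Srsf7* of the group (122, 211 and 109 CPM) and the highest *Hnrnpa1* (515 CPM). Whether the share of dividing cells had a part in the levels of the splicing factors was not tested.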

How the data were processed

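The authors sequenced bulk RNA of 6 tumors and deposited raw read counts per gene for 40166 genes, with gene length and position. Per the labels' processing notes the tools were cutadapt 1.18, FastQC 0.11.7, STAR 2.7.1a and featureCounts 1.6.4 on mm10. Neither the strand setting nor the treatment of multi-mapping reads is given in the sources used here. Reads carry no molecular identifiers, so floors cover counting error only.

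Members were taken by symbol and gene type. They and all gene lists were chosen with earlier results of these data known. In R 4.3.3, edgeR 4.0.16 was fitted to the 15355 genes whose median count reached 5 in 1 group or both, with TMM factors, and its quasi-likelihood p-values were adjusted by Benjamini-Hochberg. Each SE was obtained from the log2 fold change and its F statistic. CPM use TMM-scaled totals, and levels between genes are per kilobase of the deposited gene length. No pair of libraries within a group agreed within sampling noise (chi-square per degree of freedom 19.7 to 132). Tumor numbers are not shared between groups, so nothing was paired. DESeq2 1.42.0, limma 3.58.1 (voom), other scale factors, filters, thinned counts, a length offset and each tumor left out in turn were alternatives. On simulated counts for this comparison (15355 genes, 200 changed), edgeR recovered 63% of 4-fold and 51% of 2-fold changes, and 90.7% of 2-fold changes in genes of at least 16 CPM, with 4.2% false calls. False calls on the same simulated counts were 18.8% with DESeq2 and 2.78% with limma voom.

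The text gives tumor by tumor the 5 largest changes in each direction past the threshold, the 3 highest levels per length, the genes either side of the threshold and a preset set of well-known factors. From other lists it names up to 2 genes a direction. *Hnrnpa3*, *Prpf4b* and the genes that overlap exons of a member were named outside this rule after their values were seen. So were *Mki67* and the other proliferation markers. Coordinates are those of the table, where 38927 of its genes have the same start and end in GENCODE M21 (GRCm38). Promoters are RefSeq's, and no protein sequences were used.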

Additional observations from a re-analysis of the deposited data

How the results depend on the processing

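Over 18 alternative fits for each of 44 tested factors, 713 of 792 values kept their direction and their side of the threshold, 25 lost the threshold, 26 gained it and 28 changed sign in genes that passed in neither fit; no called gene changed sign. The count of lower factors (7) was 11 with limma voom, 12 with library size only, 4 at an adjusted p under 0.01 and 1 when a log2 change of 1 or more in size was also required. Leaving out each tumor in turn gave 4 to 12, the highest without vehicle tumor 7. The count of higher factors (11) was 1 under that last requirement, and 9 to 14 without a tumor. The median log2 fold change of the factors (-0.04) was 0.022 with limma voom, -0.075 with upper-quartile factors and -0.18 with library size only, and between -0.11 and 0.024 without a tumor, so its sign is not settled. The all-gene median moved from -0.05 to 0.06 under the length offset. Non-overlapping factors numbered 22 to 30 where this was recomputed; the filters and the length offset were not run for that count. The cause of these differences was not tested. No paired analysis was possible because the groups share no tumor number. Every tested factor had a mean of at least 16.4 CPM, and counting error was not compared with the spread between 3 tumors gene by gene.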
